A study of Mus musculus with 12 samples.

Results

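A set of 5 genes of the azurophil (primary) granule program and of the promyelocyte stage were examined in sorted M-MDSCs of young and aged mice: Prtn3, Elane, Mpo, Ctsg and Ms4a3. They were chosen by name and made up 5 of the 23420 genes in the table of counts. M-MDSCs, immature myeloid cells with a monocyte-like surface, had been sorted as CD11b+Ly6G-Ly6Chi cells from the bone marrow of male C57BL/6JNIA mice, with the tibia given as tissue in the labels, and total RNA of each mouse was sequenced in a library of its own. The aged group held 6 mice of 24 months and the young group 6 mice of 6 months, and the comparison addresses how age alters the transcripts of these cells. No treatment or transgene was given for either group. The gate selects on 3 surface proteins, so the sorted cells need not be of a single stage.

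Primary granules are filled at the promyelocyte stage of granulocyte development. Their transcripts are then switched off, while the proteins stay stored in the granules of the mature cell. Myeloperoxidase (Mpo) makes hypochlorous acid, and neutrophil elastase (Elane), proteinase 3 (Prtn3) and cathepsin G (Ctsg) are related serine proteases that are stored in active form after cathepsin C has removed a propeptide. Ms4a3 encodes a membrane protein of granulocyte-monocyte progenitors and promyelocytes.

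The genes lie at 4 places of mm10. Prtn3 (chr10:79879667-79883172, + strand, 5 exons, 970 bases of exon) and Elane (chr10:79886312-79888216, + strand, 5 exons, 920 bases) are neighbours with 3139 bases between them. Mpo is at chr11:87793784-87804412 (+ strand, 14 exons, 2546 bases), Ctsg at chr14:56099881-56102574 (− strand, 5 exons, 1002 bases) and Ms4a3 at chr19:11629497-11640834 (− strand, 7 exons, 1012 bases). No exon of the 5 genes overlapped an exon of another gene in the annotation.

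The 250 bases before the start of the 4 tested genes are printed because these genes were measured together while their promoters differ in which letters they hold. They are RefSeq sequences of GRCm38.p6, the build also known as mm10, written 5′ to 3′ on the strand of the gene. Capitals mark matches, on either strand, to letters typical of 4 factor families of granulocyte precursors: GAGGAA for PU.1, AACNG for MYB, TTNNGNAA for C/EBP and TGTGGT for RUNX.
Prtn3, chr10:79879417-79879666 (+ strand): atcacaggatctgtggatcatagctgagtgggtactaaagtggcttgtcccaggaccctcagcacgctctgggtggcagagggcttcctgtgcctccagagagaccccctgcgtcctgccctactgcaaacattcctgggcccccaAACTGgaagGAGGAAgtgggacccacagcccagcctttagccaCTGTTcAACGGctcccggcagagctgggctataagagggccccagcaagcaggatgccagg
Elane, chr10:79886062-79886311 (+ strand): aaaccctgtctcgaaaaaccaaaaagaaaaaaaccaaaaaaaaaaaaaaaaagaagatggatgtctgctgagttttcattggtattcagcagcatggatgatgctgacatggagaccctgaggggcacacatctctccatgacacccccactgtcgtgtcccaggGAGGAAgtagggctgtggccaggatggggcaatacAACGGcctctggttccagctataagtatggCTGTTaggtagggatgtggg
Mpo, chr11:87793534-87793783 (+ strand): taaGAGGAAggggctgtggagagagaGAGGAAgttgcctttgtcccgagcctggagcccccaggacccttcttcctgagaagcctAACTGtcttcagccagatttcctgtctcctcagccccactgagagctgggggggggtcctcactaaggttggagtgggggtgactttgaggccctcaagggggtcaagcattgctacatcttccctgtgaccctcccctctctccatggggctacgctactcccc
Ms4a3, chr19:11640852-11641101 (− strand): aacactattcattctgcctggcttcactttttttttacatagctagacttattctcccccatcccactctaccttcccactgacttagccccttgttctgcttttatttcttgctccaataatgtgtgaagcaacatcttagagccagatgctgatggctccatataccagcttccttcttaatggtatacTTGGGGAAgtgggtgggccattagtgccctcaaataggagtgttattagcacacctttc
Counted from the start, the PU.1 letters began at −95 in Prtn3, at −85 in Elane and at −247 and −224 in Mpo. The MYB letters were found in the same windows, 3 times for Prtn3, 2 times for Elane and 1 time for Mpo. The Ms4a3 window held neither, and its 1 match, to the C/EBP letters, ran from −59 to −52. For Ms4a3 the window and positions count from the RefSeq start at 11640851, which differs from the 11640834 of the count annotation. The Ctsg window, not printed, held the PU.1 and the MYB letters and was the only one of the 5 with the RUNX letters. No 2 of these matches overlapped. Among 32851 mouse promoter windows of the same length, the PU.1 letters were in 23.3%, the MYB letters in 74.2%, the C/EBP letters in 36.8% and the RUNX letters in 4614 windows, so matches of this kind are frequent. A match describes letters only and was not set against binding of a factor.

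Library totals were 8737941 to 16300374 counts for the aged and 4613239 to 9079237 for the young group. Levels are given as CPM, counts per 1000000 counts of the library total scaled with TMM factors, and a count of 3 is worth 0.188 to 0.350 CPM in an aged library and 0.306 to 0.643 CPM in a young library. The young replicates 5 and 6 stood apart from the other young mice, with chi-square values per gene of 22.4 to 38.1 against them and of 1.72 to 5.92 among the others. These values come from raw counts and grow with depth. Aged pairs lay at 5.42 to 37.8, with aged replicate 7, the deepest library, at 18.8 to 37.8 against every other aged mouse. Without it Prtn3, Elane, Mpo and Ms4a3 were still called by edgeR, and for the young pair, calls that were lost without these 2 mice are given beside the result. The sample numbers of the alignment files were lower in every young than in every aged mouse, so that age and whatever these numbers stand for, which the labels do not say, cannot be told apart. The libraries were rich in neutrophil granule transcripts. Per kilobase of exon, Ngp stood at 34134 ± 2903 CPM in aged mice (SD, n = 6) and Lcn2 at 13254 ± 1193, while the monocyte genes Csf1r and Ccr2 stood at 36.5 ± 9.56 and 8.71 ± 6.19. The monocytic label was therefore not borne out by Ccr2 and Csf1r levels, whereas Ly6c2, which encodes an antigen of the gate, stood at 908 ± 93.2. Transcripts of early progenitors were few, as Hoxa9 and Cd27 had 0 counts in every mouse and Cd34 at most 11, although Kit stood at 12.03 ± 1.09 CPM per kilobase.

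Prtn3, Elane, Mpo and Ctsg were low in these cells, whereas Ms4a3 was of middle level. In mean CPM, Ms4a3 stood above 51.0% of the tested genes, Mpo above 15.8%, Prtn3 above 12.7% and Elane above 7.86%. Per kilobase of exon, the mean levels of the 5 genes fell in the order Ms4a3, Prtn3, Elane, Mpo and Ctsg in both ages. Ms4a3 stood at 27.9 ± 3.78 CPM per kilobase in aged and 20.6 ± 3.43 in young mice (SD, n = 6), and in neither age did it overlap with the next gene. Prtn3 stood at 4.98 ± 0.849 and 1.65 ± 0.539, Elane at 3.45 ± 1.32 and 1.46 ± 0.799, and Mpo at 2.07 ± 0.581 and 1.01 ± 0.302. Prtn3 exceeded Elane, and Elane exceeded Mpo, in 6 of 6 aged mice but in 4 of 6 young mice, and the ranges of these neighbours in the order overlapped in both ages. Ctsg came last, at 0.551 ± 0.407 and 0.457 ± 0.301, and below Mpo in every mouse. Ngp, of the secondary granules, stood several orders of magnitude above all of them.

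**Figure D1:**
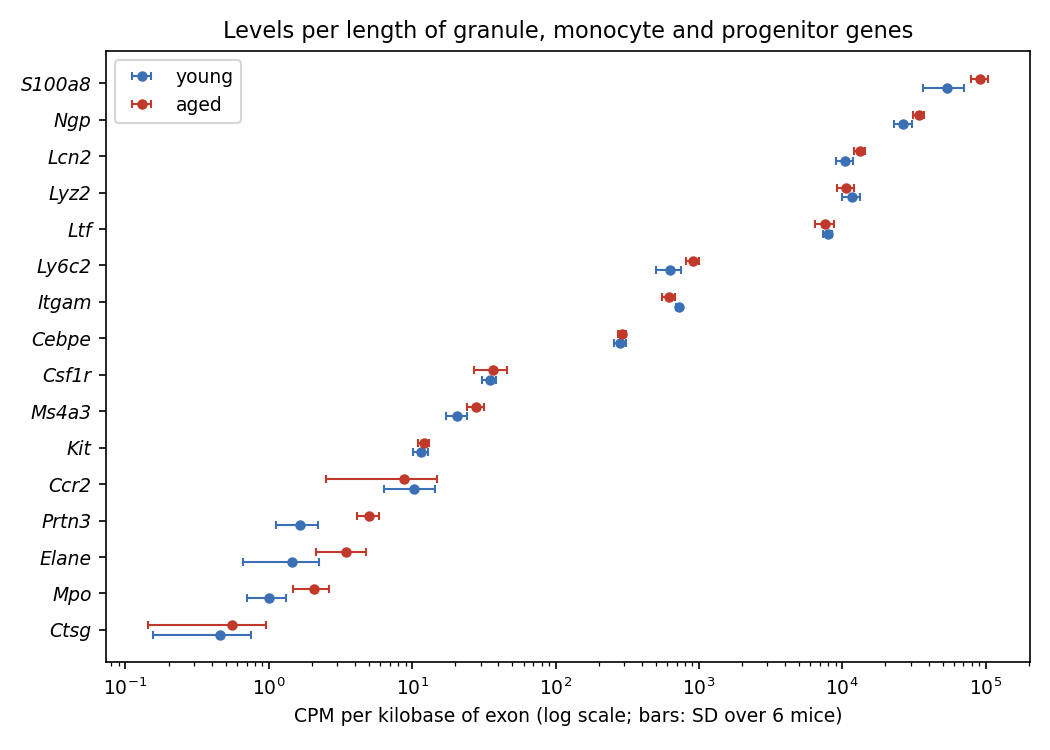
Mean level of each gene in CPM per kilobase of exon on a log axis, with the SD over 6 mice as bars, for young (blue) and aged (red) mice. Ngp, Lcn2, Lyz2, Ltf and S100a8 lie far above the rest, from 7623 for Ltf in aged mice upwards, Ms4a3 lies at 27.9 in aged and 20.6 in young mice, and the 3 proteases and Mpo lie below 5.

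Transcripts of proteinase 3, neutrophil elastase, myeloperoxidase and Ms4a3 were higher in aged M-MDSCs, by 2.90-fold, 2.38-fold, 1.99-fold and 1.36-fold. Cathepsin G was too low to be tested. Of all 9742 genes tested with edgeR's quasi-likelihood test, 45.4% were called at a Benjamini-Hochberg adjusted p under 0.05, and 22.4% were called higher in aged mice, so that a call alone sets these 4 genes apart little. The size of the difference ranked higher. Of the tested genes, 0.852% had a rise at least as large as that of Prtn3. Elane exceeded 98.7%, Mpo 97.8% and Ms4a3 84.8% of them in log2 fold change. These ranks have limits. The filter on low counts could be met by 6 aged mice alone, and 3 young mice were over it for Elane and 5 for Prtn3. Log2 fold change also fell with gene length (Spearman's rho −0.48). With a correction for gene length it was 1.20 for Prtn3, 0.89 for Elane, 0.96 for Mpo and 0.12 for Ms4a3. In such bulk samples, more cells of a type and more RNA per cell cannot be told apart.

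Prtn3, whose product cleaves matrix and surface proteins and is best known as an autoantigen of vasculitis, had 39 to 96 counts in aged and 4 to 20 in young mice. Its level in aged mice had a lowest value of 3.69, a median of 4.84 and a highest of 6.01 CPM, and in young mice a lowest of 0.781, a median of 1.70 and a highest of 2.31 CPM. Every aged mouse lay above every young mouse, and of all tested genes 21.8% separated the ages without overlap, 9.68% with the aged mice above. The means were 4.84 ± 0.824 and 1.60 ± 0.523 CPM (SD, n = 6), the log2 fold change was 1.54 (SE 0.21), and the adjusted p of the edgeR test was 9.54e-05.

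Elane, the elastase whose human counterpart is mutated in inherited neutropenias, had 18 to 72 counts in aged and 2 to 18 in young mice. Its lowest, median and highest levels were 1.66, 3.14 and 4.55 CPM in aged mice and 0.391, 1.26 and 2.36 CPM in young mice. The groups overlapped, and 4 of 6 aged mice lay above the highest young mouse, replicate 2, which had 11 counts. The means were 3.17 ± 1.21 and 1.34 ± 0.735 CPM (SD, n = 6), with a log2 fold change of 1.25 (SE 0.35) and an adjusted p of 0.00897 in the edgeR test. Elane passed the filter on low counts, which asked for 1.14 CPM in 6 mice, mainly through the aged group, as 6 aged and 3 young mice were over it. With all libraries thinned to the total of the smallest, the log2 fold change of 1.30 missed the threshold, with an adjusted p of 0.0527, and with the length correction Elane had 0.89 with an adjusted p of 0.0630.

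Mpo, the peroxidase stained for in granulocyte precursors, had 29 to 73 counts in aged and 9 to 35 in young mice. Its lowest, median and highest levels were 2.68, 5.59 and 6.58 CPM in aged mice and 1.76, 2.34 and 3.80 CPM in young mice. The lowest aged mouse, replicate 5, lay within the young range, and the other 5 lay above the highest young mouse. The means were 5.26 ± 1.48 and 2.58 ± 0.768 CPM (SD, n = 6), with a log2 fold change of 0.99 (SE 0.24) and an adjusted p of 0.00411 in the edgeR test.

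Ms4a3 had 212 to 510 counts in aged and 85 to 216 in young mice and was thus the best measured of the genes. Its lowest, median and highest levels were 22.7, 30.0 and 32.0 CPM in aged mice and 16.6, 20.5 and 24.97 CPM in young mice. The upper 4 aged mice lay above all young mice, whereas replicates 4 and 5 lay among them. The means were 28.2 ± 3.82 and 20.8 ± 3.47 CPM (SD, n = 6), with a log2 fold change of 0.44 (SE 0.12) and an adjusted p of 0.00851 in the edgeR test. This call was lost without the young replicates 5 and 6, where the log2 fold change was 0.33 with an adjusted p of 0.0676, and with a correction for gene length, where it was 0.12 with an adjusted p of 0.399.

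Ctsg, the chymotrypsin-like member of the protease family, had 12, 4, 3, 3, 3 and 10 counts in the aged and 1, 1, 8, 3, 7 and 3 in the young mice. These are 35 counts in all aged and 23 in all young libraries, and aged replicate 1 alone held 12. The levels of 0.552 ± 0.408 and 0.458 ± 0.301 CPM (SD, n = 6) overlapped almost fully, and 1 mouse of the 12 passed the level that the filter asked for. In an edgeR fit without the filter the log2 fold change was 0.16 (SE 0.52) with an adjusted p of 0.845, an error too wide at this depth to set Ctsg apart from Mpo or Ms4a3.

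**Figure D2:**
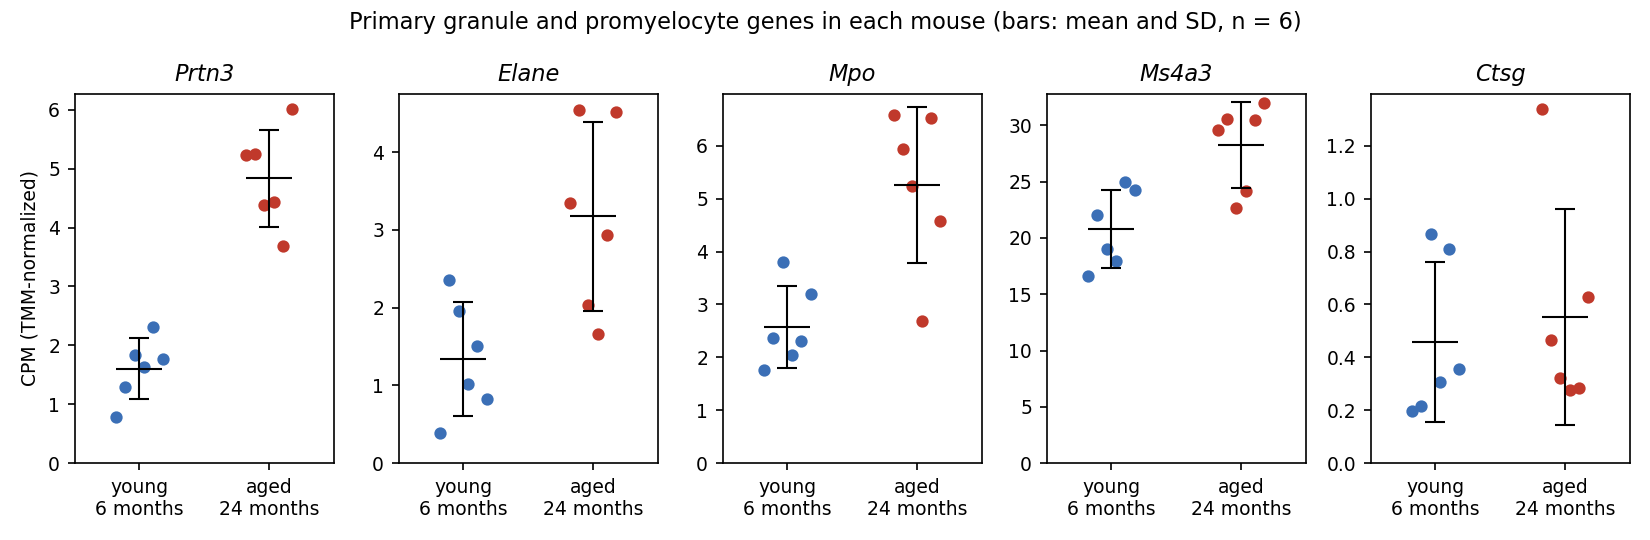
CPM of each gene in each mouse, young (blue) and aged (red), with the mean and SD over 6 mice as black bars and a separate axis from 0 for each gene. Prtn3 alone separates the ages, with 3.69 CPM in the lowest aged and 2.31 in the highest young mouse, and Ctsg stays below 1.4 CPM in all mice.

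Summed over the 5 genes, the level was 42.1 ± 6.40 CPM in aged mice (SD, n = 6, range 33.3 to 47.7) and 26.8 ± 4.62 in young mice (range 19.7 to 31.9). The share of Ms4a3 in these counts was 64.2 to 72.8% in the aged and 69.2 to 84.2% in the young group. Mpo, Elane and Prtn3 together reached 13.3 ± 2.68 CPM in aged mice (range 8.78 to 15.7) and 5.52 ± 1.57 in young mice (range 2.93 to 7.60). The ages overlapped in neither sum, but without TMM factors the 5-gene sum of aged replicate 5, at 30.5, lay below that of young replicate 9, at 31.8. The summed level of the erythroid markers separated the ages as well, from 1.294 to 10.6 CPM in aged and from 0.391 to 1.286 in young mice, with the highest value in aged replicate 1. None of these markers passed the filter, Hba-a1 had 0 counts in every mouse, and their part in the results was not tested. Without aged replicate 1 the log2 fold changes were 1.51 for Prtn3, 1.24 for Elane, 0.92 for Mpo and 0.43 for Ms4a3, each still called by edgeR.

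The genes did not rise in equal measure. Ratios of counts within a library do not depend on how libraries are scaled, and the 10 ratios among the 5 genes were compared between the ages with two-sided exact permutation tests over the mice, with Benjamini-Hochberg adjustment over the 10. The log2 ratio of Prtn3 to Ms4a3, with 0.5 added to each count, was −2.54 ± 0.247 in aged and −3.69 ± 0.373 in young mice (SD, n = 6), a difference of 1.15 that all 6 aged mice showed, with an exact p of 0.00216, the smallest that 6 against 6 mice allow, and an adjusted p of 0.0216. Prtn3 also rose relative to Ctsg, by 1.46 with 5 aged mice above the highest young mouse and an adjusted exact p of 0.0433, but this rested on few counts of Ctsg and was lost in 10 of the 12 comparisons that left out 1 mouse. Relative to Ms4a3, Elane was higher by 0.84 and Mpo by 0.55, each with an adjusted exact p of 0.0902. Elane and Prtn3, the neighbours on chromosome 10, differed in ratio by −0.30 with an adjusted exact p of 0.455, and Mpo and Prtn3 by −0.60 with an adjusted exact p of 0.0989. These misses do not show that the genes rose alike.

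**Figure D3:**
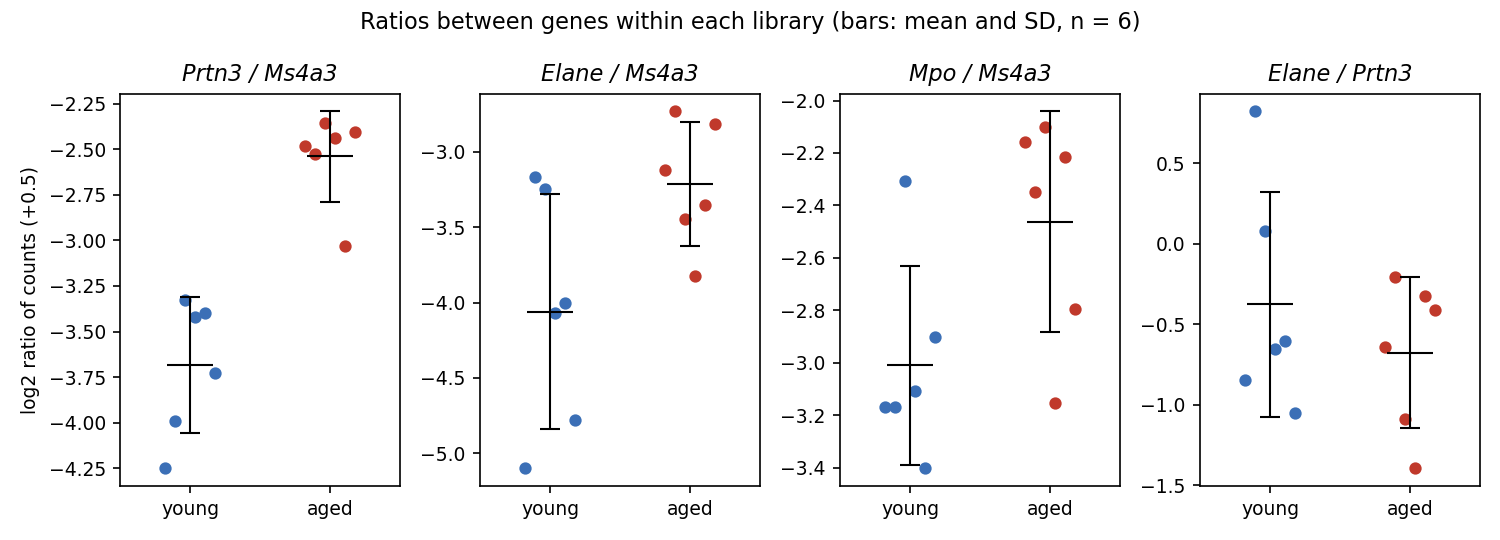
Log2 ratio of the counts of 2 genes (0.5 added to each) in each mouse, young (blue) and aged (red), with the mean and SD over 6 mice as bars, for 4 of the 10 ratios. The ratio of Prtn3 to Ms4a3 separates the ages, with means of −3.69 in young and −2.54 in aged mice, while the other 3 ratios overlap.

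Within an age, the genes varied together to a moderate degree. After subtraction of the mean of each age, Pearson's r across the 12 mice lay between 0.32 (Mpo and Prtn3) and 0.70 (Prtn3 and Ctsg), a description over points that share library and depth. Among 6590 tested genes with at least 10 CPM, the 5 whose pattern was most like the mean log2 level of the 5 genes, by the same measure over 12 mice, were Klhl20 (r = 0.92), Rnaseh2b (r = 0.90), Srp68 (r = 0.89), Vprbp (r = 0.88) and Cse1l (r = 0.86). None of these was called between the ages, with log2 fold changes from −0.21 for Srp68 to 0.10 for Rnaseh2b. They were picked as the highest of 6590 values, and whether they exceed what such a choice gives was not tested. The mean also gave Ctsg, with at most 12 counts in a mouse, the same weight as Ms4a3.

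Other genes of the primary granule showed smaller differences than Prtn3. Of 5 tested genes for other granule contents and membrane, 2 rose, 0 fell and 3 were not called. Their median log2 fold change was 0.20, beside 0.01 over all tested genes, of which 22.4% were called higher and 23.0% lower. Prss57, a serine protease of the same granules that lies 90681 bases from Prtn3, rose from 12.01 ± 2.44 to 16.1 ± 1.30 CPM (SD, n = 6), a log2 fold change of 0.43 with an edgeR adjusted p of 0.0108, which became 0.0895 without the young replicates 5 and 6. Cd63, a membrane protein of primary granules and lysosomes, rose by 0.51 (SE 0.11, adjusted p = 0.00169, edgeR), and by 0.20 with the length correction (adjusted p = 0.0470). The lysosomal enzymes Man2b1 and Gusb had log2 fold changes of 0.20 and 0.13 and were not called, though Man2b1 was with the length correction (0.33, adjusted p = 0.0164). Lysozyme, encoded by Lyz2 and at 11222 ± 1459 CPM in aged mice far more abundant than any of these, differed by −0.14 on the log2 scale (edgeR adjusted p = 0.349). It was called lower with the length correction, at −0.44 (edgeR adjusted p = 0.00594), and relative to secondary and tertiary granule genes, at −0.37 (edgeR adjusted p = 8.54e-04). Bpi, the bactericidal protein of these granules, had at most 2 counts in any mouse.

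Of 8 tested genes for maturation and packing of the enzymes, 2 rose and 6 were not called, with a median of 0.17. The share of all tested genes called was 22.4% for higher and 23.0% for lower. Ctsc, which encodes the cathepsin C that activates all 3 proteases, rose from 15.8 ± 2.34 to 49.1 ± 30.8 CPM (SD, n = 6), a log2 fold change of 1.62 (SE 0.33) with an edgeR adjusted p of 0.00126. Resident macrophages also express Ctsc. Their 7 tested markers were called higher in aged mice by edgeR and 4 of them by limma-voom, and the call of Cd163 was lost without the young replicates 5 and 6 (adjusted p = 0.156) and without aged replicate 1 (adjusted p = 0.347). Their summed level was 54.8 to 997 CPM in aged and 45.5 to 62.2 in young mice, and it was highest in aged replicate 1. Without that mouse the log2 fold change of Ctsc was 1.26 with an adjusted p of 0.00140 (edgeR), and the part of macrophages in it was not tested. Srgn, the proteoglycan core that holds the proteases in the granule, rose by 0.66 (SE 0.23, adjusted p = 0.0276, edgeR), but had 0.40 without the young replicates 5 and 6 (adjusted p = 0.151) and 0.33 with the length correction (adjusted p = 0.200). The chaperones of Mpo, Calr and Canx, had log2 fold changes of 0.10 and 0.16, and Pdia3, Furin, Ap3b1 and Vps33b lay between −0.20 and 0.22. With the length correction Canx was called higher at 0.28 (adjusted p = 0.0309) and Furin at 0.36 (adjusted p = 0.0315).

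Of 4 tested genes for protease inhibitors, 3 rose and 1 was not called, where 22.4% of all tested genes were called higher. Serpinb1a, which inhibits elastase, proteinase 3 and cathepsin G, rose from 475 ± 38.9 to 646 ± 48.7 CPM (SD, n = 6) without overlap of the ages, a log2 fold change of 0.44 with an edgeR adjusted p of 3.16e-04. Slpi, a secreted inhibitor of elastase and cathepsin G, rose by 0.68 (adjusted p = 0.00624, edgeR), and Serpinb6a, an inhibitor of cathepsin G, by 0.50 (adjusted p = 0.00363, edgeR). Serpinb10 stood at 63.8 CPM in both ages. With the length correction the call of Slpi was lost at 0.33 (adjusted p = 0.0817).

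Most transcription factors of granulocyte precursors were not called. Of 6 tested, 0 rose, Runx1 alone fell and 5 were not called, with a median of −0.02. Of all tested genes, 22.4% were called higher and 23.0% lower. Gfi1 and Cebpe, which act around the promyelocyte stage and after it, had log2 fold changes of −0.08 and 0.04, Cebpa 0.14, Cbfb 0.10, and Myb, which drives Elane and Mpo in precursors, −0.27 (adjusted p = 0.0741, edgeR). Cebpe turned to −0.21 with the length correction and was then called (adjusted p = 0.0471). Other edgeR settings called further factors. Myb was called lower without TMM factors (−0.37, adjusted p = 0.0419) and without 2 shallow young libraries (−0.36, adjusted p = 0.0306). Cebpa was called higher without these libraries (0.34, adjusted p = 0.0219), and Cbfb with upper quartile scaling (0.14, adjusted p = 0.0349). Runx1 fell from 110 ± 6.68 to 92.5 ± 3.86 CPM (SD, n = 6), a difference of −0.25 on the log2 scale (edgeR adjusted p = 0.00300) that turned to 0.09 with the length correction (adjusted p = 0.333). Of 5 tested monocyte factors, 0 rose, Klf4 fell by 1.13, Nr4a1 by 1.07 and Egr1 by 0.70, and Irf8 and Zeb2 were not called. Zeb2 turned from −0.02 to 0.42 with the length correction and was then called higher (adjusted p = 0.0214). Without the young replicates 5 and 6 only Egr1 of the 3 was called, while Klf4 had −0.47 (edgeR adjusted p = 0.456) and Nr4a1 −0.63 (edgeR adjusted p = 0.0616).

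Markers of the stages before and after the promyelocyte were counted in the same fit, where 22.4% of all tested genes were called higher and 23.0% lower. Of the early progenitor list only Kit was tested, and it differed by 0.06 on the log2 scale (edgeR adjusted p = 0.567). With the length correction it was called higher, at 0.26 (edgeR adjusted p = 0.0465). Of 12 proliferation genes 0 rose and 2 fell, Mki67 by 2.01 and Top2a by 0.62, and the summed level of the list was 471 to 1006 CPM in aged and 821 to 1463 in young mice, with the highest 2 in young replicates 5 and 6. Without these mice 1 of the 12 fell, Mki67 by 1.51, and Top2a had −0.43 (edgeR adjusted p = 0.180). The length correction ended the call of Top2a as well (adjusted p = 0.100). Of 9 genes of secondary and tertiary granules 4 rose (Camp by 0.47, Cd177 by 0.37, Ngp by 0.36 and Lcn2 by 0.35), Olfm4 fell by 0.48, and Ltf, Fcnb, Mmp8 and Mmp9 were not called. Of 7 genes of mature neutrophils S100a8, S100a9 and Retnlg rose and 4 were not called. With the length correction 1 of the 9 and 0 of the 7 rose, and without the young replicates 5 and 6 Cd177 alone of the 9, and S100a8 and S100a9 of the 7, rose. These young mice held the lowest levels of both lists.

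**Figure D4:**
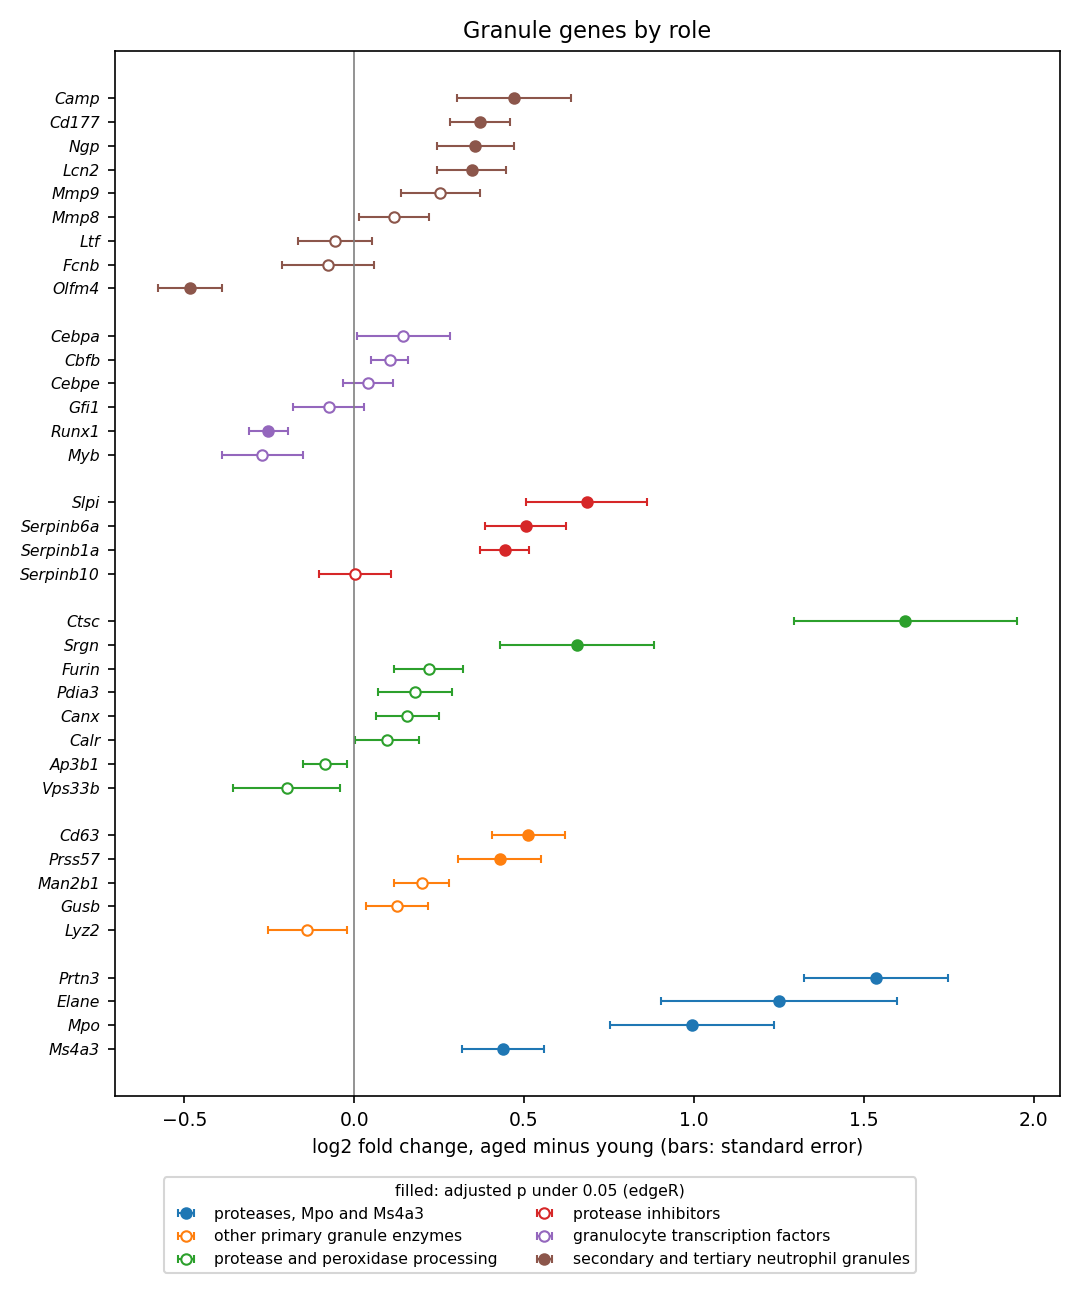
Log2 fold change of aged against young mice with its standard error for the tested genes of each role, where filled points have an edgeR adjusted p under 0.05 over all 9742 genes. Prtn3, Elane and Mpo lie at 1.54, 1.25 and 0.99, beyond all other granule genes shown except Ctsc at 1.62.

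The genes were also scaled to the summed counts of the 9 secondary and tertiary granule genes of the same library. On this scale the median log2 fold change of all genes was −0.24. Prtn3, here in CPM of the granule counts, stood at 49.5 ± 6.44 in aged and 19.5 ± 6.37 in young mice (SD, n = 6), again without overlap, and differed by 1.29 on the log2 scale (edgeR adjusted p = 3.23e-04). Elane had 0.98 (adjusted p = 0.0320, edgeR) and Mpo 0.75 (adjusted p = 0.0305, edgeR). Ms4a3 had 0.20 and was no longer called (adjusted p = 0.139, edgeR).

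Within 6 aged or 6 young mice, the mean log2 level of the 5 genes was not shown to follow either proliferation or secondary granule genes. The 4 relations were computed with exact permutation tests, two-sided, and Benjamini-Hochberg adjustment over the 4. With the proliferation list Pearson's r was 0.79 in aged mice (exact p = 0.0611, adjusted 0.244, Spearman's rho 0.77 with exact p = 0.103), and 0.88 without the 2 mice farthest from the median. In young mice it was 0.57 (exact p = 0.242, adjusted 0.389, rho 0.43 with exact p = 0.419), and −0.26 without 2 mice. With the secondary and tertiary granule list r was 0.56 in aged mice (exact p = 0.292, adjusted 0.389, rho 0.66 with exact p = 0.175) and −0.01 in young mice (exact p = 0.922, rho 0.09 with exact p = 0.919). Without the 2 mice farthest from the median these became 0.45 and 0.85.

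Genes that neighbour the 5 genes were examined next. Within 100 kb there were 41 other genes, of which 16 were tested, 3 were higher and 3 lower in aged mice and 10 were not called, where 22.4% of all tested genes were called higher and 23.0% lower. Next to Prtn3 and Elane, Prss57, Med16 (0.41) and R3hdm4 (0.60) rose, Arid3a fell by 0.51, Ptbp1 had −0.00, and Palm, Fstl3, Kiss1r, Wdr18, Tmem259 and BC005764 were not called. Cfd, a further serine protease 2636 bases from Elane, had at most 2 counts in any mouse. Beside Mpo, Bzrap1 fell by 1.02 (−0.60 without the young replicates 5 and 6), the precursor gene Mir142 fell by 0.39 (edgeR adjusted p = 0.0588 without these mice) and Supt4a was not called, while Lpo, a related peroxidase 2015 bases away, had 0 counts in every mouse. Near Ctsg, 7 of 9 genes, all mast cell proteases or granzymes, had 0 counts in every mouse. Near Ms4a3, Ms4a6d had 0.94 (adjusted p = 0.0956, edgeR) and Ms4a6b −0.34, and neither was called. Of 14 further granule protease and peroxidase genes of mast cells, eosinophils, basophils and lymphocytes none reached the filter, and their summed level was 0.466 to 1.78 CPM in aged and 0 to 0.828 in young mice.

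**Figure D5:**
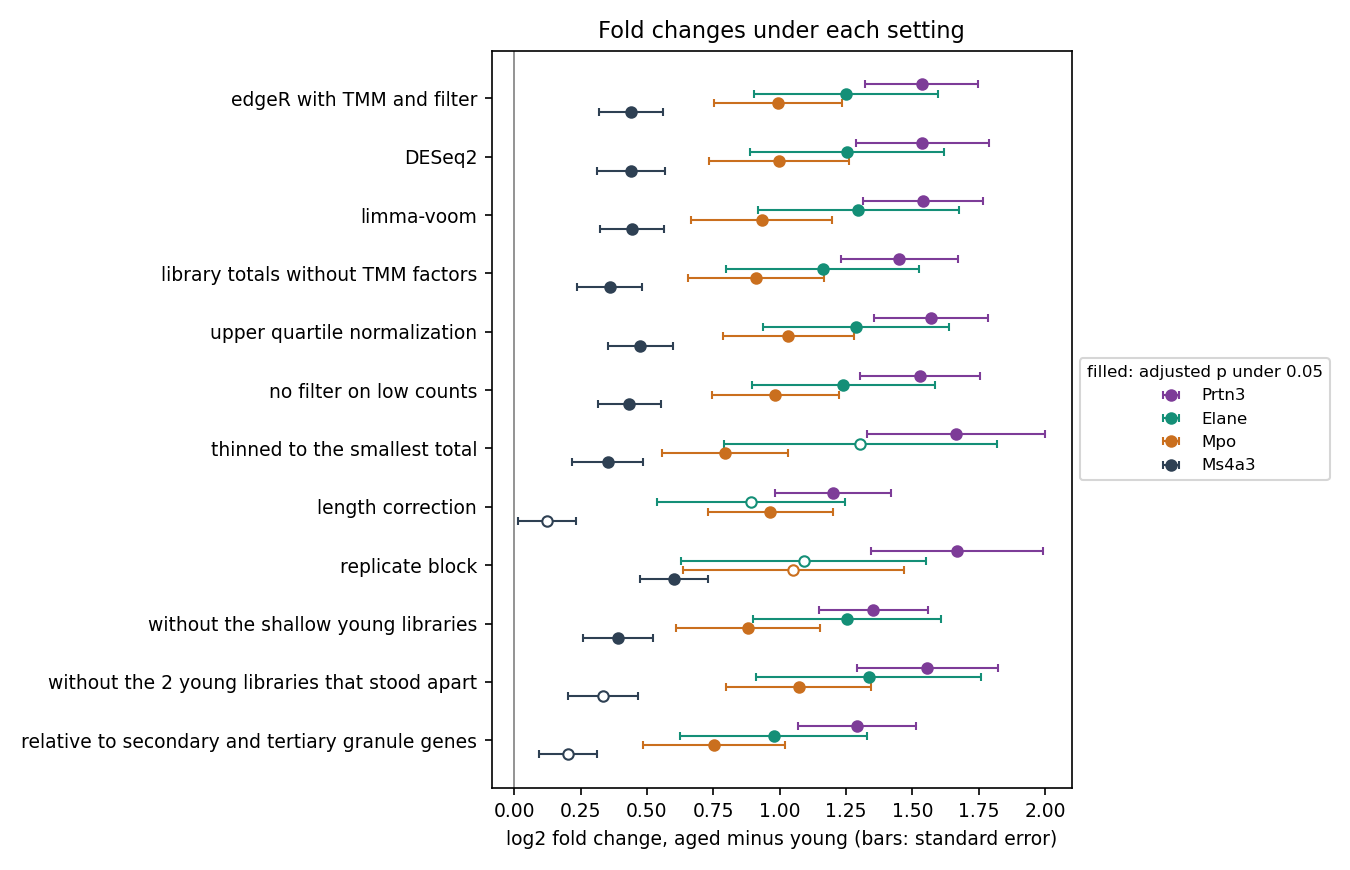
Log2 fold change with its standard error for the 4 tested genes under each way of processing, where filled points have an adjusted p under 0.05. Prtn3 stays filled in all of them, from 1.20 to 1.67, Elane opens in 3 and Mpo in 1, and Ms4a3 opens with the length correction at 0.12, without the 2 young libraries that stood apart at 0.33 and relative to the granule genes at 0.20.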

How the data were processed

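RNA of M-MDSCs from 12 mice was measured. The deposited values were raw counts of fragments per gene that the authors made with featureCounts 2.0.0 on the exons of an mm10 annotation, with reverse-stranded counting and a mapping quality of at least 60, which drops fragments that fit several places. The aligner is not given in the sources used here. Counts were tested as deposited with edgeR 4.0.16 in R 4.3.3 (filterByExpr, TMM, glmQLFit, glmQLFTest), and p-values were adjusted with Benjamini-Hochberg over all 9742 genes kept, with a threshold of 0.05. Genes under the filter, Ctsg among them, were left out of that test. Standard errors were derived from the F statistics. BCV was 15.7%. The script was tested on simulated data. No 2 libraries agreed within sampling noise (smallest chi-square per gene 1.72).

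Alternatives were DESeq2 1.42.0, limma-voom (limma 3.58.1), 2 other scalings, 2 other filters, a length correction, thinning, a replicate block and leaving out each mouse. Without 2 shallow young libraries, without the 2 that stood apart, and relative to granule genes were chosen after seeing the data. The genes and the 17 gene lists were chosen with earlier results of these data known, and 2 list genes are not reported here and were left out of the list counts. Named genes are the 5, the largest rise, largest fall and smallest p-value of a list, list genes not called where 5 or fewer, tested neighbours within 100 kb, and the 5 most alike genes, and Serpinb6a, Egr1, Cd177, S100a9 and other list genes beyond these were named after their values were seen. RefSeq promoters matched 5 of 5 genes. No gene of the B cell and erythroid lists passed the filter. Of 3 dendritic genes 2 rose (0 with limma-voom) and Clec9a fell, of 9 classical monocyte genes 2 rose (1 with DESeq2 or limma-voom) and Itgam fell, of which Itgam (adjusted p = 0.0576) and Ly6c1 (0.44, adjusted p = 0.258) were not called without young replicates 5 and 6, and 0 of the 9 were called with the length correction, and of 1 T and NK gene 0 rose.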

Additional observations from a re-analysis of the deposited data

Results flagged for a closer look

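In aged replicate 1, Ctsg stood at 1.34 CPM, apart from the other aged mice at 0.277 to 0.626 CPM, by a gap of 0.671 of the whole range, which exceeds Dixon's 95% critical value for 6 samples. The value rests on 12 counts. It was the only such gap in 10 groups of 6 values, where chance gives about 1 in 20.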

How the results depend on the processing

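Without each mouse in turn, the log2 fold changes lay at 1.42 to 1.66 for Prtn3, 1.10 to 1.41 for Elane, 0.92 to 1.15 for Mpo and 0.39 to 0.50 for Ms4a3, and each gene was called in 12 of 12 fits. Among the other settings, Prtn3 was called in 11 of 11, Mpo in 10 of 11, Elane in 8 of 11 and Ms4a3 in 9 of 12, and all were higher in aged mice. A minimum of 10 counts in every mouse kept Ms4a3 alone of the 5. With the length correction Elane had 0.89 (adjusted p = 0.0630) and Ms4a3 0.12 (adjusted p = 0.399), where log2 fold change fell with gene length across genes (Spearman's rho −0.48). Thinned to the smallest total, Elane had 1.30 (adjusted p = 0.0527). Ms4a3 had 0.33 (adjusted p = 0.0676) without the 2 young libraries that stood apart and 0.20 (adjusted p = 0.139) relative to granule genes. With the replicate block, Mpo had 1.05 (adjusted p = 0.0848) and Elane 1.09 (adjusted p = 0.103), and genes called went from 4425 to 3469. The 4 shared numbers (1, 2, 5 and 6) did not pair the mice, as deviations of mice with the same number correlated at −0.25 to −0.07 and no mouse correlated best with its own number. Genes called ranged from 3157 to 4739 and called list genes, 34 in the reported fit, from 27 to 38, except 22 without the 2 young libraries that stood apart. Of the 10 ratios, 2 differed between the ages, 4 did with a count of 2 added to each gene, and 1 to 4 did without each mouse in turn, 4 of them without aged replicate 1. Depth limits Ctsg most, with at most 12 counts in a mouse. The cause of these shifts was not tested.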
